A study of Mus musculus with 8 samples.

Results

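The elastic fibre genes around elastin were examined as a set of 10 genes, Eln, Fbn1, Fbn2, Fbln1, Fbln5, Mfap2, Mfap4, Mfap5, Emilin1 and Ltbp4. They were chosen by symbol, and all 10 were found once among the 31053 genes of the tables. UMI counts (unique molecular identifiers, 1 per captured RNA molecule) came from 8 single-cell libraries of dorsal skin of female BALB/c mice aged 14 to 16 weeks. In 4 libraries the skin had been injected subcutaneously with PBMCsec, the secretome of irradiated human peripheral blood mononuclear cells, and in 4 with a vehicle whose composition the labels do not name. The labels give neither the time after injection nor any wounding, nor a genotype other than the strain. Nothing in them says which samples came from separate animals, so p-values measure the spread between these libraries.

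Elastic fibres give skin its recoil. Tropoelastin, the product of Eln, is deposited on a scaffold of microfibrils whose backbone is built from the fibrillins (Fbn1, Fbn2) with the microfibril-associated glycoproteins Mfap2 and Mfap5. Fibulin-5 (Fbln5), the latent TGFβ binding protein Ltbp4 and Mfap4 take part in placing elastin on the scaffold, Emilin1 sits at the interface of elastin and microfibrils, fibulin-1 (Fbln1) lies within the elastin core, and lysyl oxidases cross-link the finished polymer.

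The libraries held 14753926 to 37880651 UMIs in all. Of 26231 barcodes 6150 were kept, 151 to 1659 per library, by limits on genes (500 to 4000), UMIs (up to 20000) and the mitochondrial share (up to 5%), and 16900 barcodes lay over the last of these. Among the kept cells 4 barcode sequences occurred in more than 1 library. Fibroblasts (FBs) numbered 1612. All 10 FB markers, Pdgfra, Dcn and Col1a1 among them, were found in at least 25% of these cells, whereas of the 10 markers of smooth muscle cells and pericytes (SMCs/PCs) none was, with Rgs5 in 0.620% and Acta2 in 12.7% of FBs and Higd1b in none. Their summed level in FBs was 65.8 to 775 CPM in PBMCsec and 90.9 to 1033 CPM in vehicle libraries, and its part in the results on FBs was not tested. The libraries contributed unequally, with 27 and 31 FBs in vehicle libraries 2 and 1 and 550 in PBMCsec library 3. Levels are given as CPM, the UMIs of a gene scaled to a common total of UMIs over the cells summed. Since UMIs tag the 3′ end, values are compared between cells and libraries for 1 gene, not between genes.

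Promoter windows are shown for members at opposite ends of the comparison of FBs with endothelial cells (ECs), Fbln5 and Ltbp4, which were higher in ECs, and Fbln1 and Mfap2, of which ECs held 1 and 2 UMIs. RefSeq windows on GRCm38.p6 matched 6 of the 10 members. Eln, Fbn2, Mfap4 and Mfap5 had no entry. The windows of Fbn1 and Emilin1 lay in annotated exons and are not printed. Each line gives the stretch upstream of a start that overlaps no annotated exon, read 5′ to 3′ along the gene, with capitals marking, on either strand, the GC box (letters GGGCGG), the CAAT box (letters CCAAT), the TATA box (letters TATAAA) and the core shared by many ETS factor motifs (letters AGGAAG).
Fbln5, chr12:101819120-101819369, minus strand: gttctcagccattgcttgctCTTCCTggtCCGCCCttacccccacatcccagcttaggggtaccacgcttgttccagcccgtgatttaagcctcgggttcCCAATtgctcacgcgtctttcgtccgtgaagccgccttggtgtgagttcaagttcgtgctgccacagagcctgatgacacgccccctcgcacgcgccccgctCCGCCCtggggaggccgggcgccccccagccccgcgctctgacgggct
Ltbp4, chr7:27337693-27337862, minus strand: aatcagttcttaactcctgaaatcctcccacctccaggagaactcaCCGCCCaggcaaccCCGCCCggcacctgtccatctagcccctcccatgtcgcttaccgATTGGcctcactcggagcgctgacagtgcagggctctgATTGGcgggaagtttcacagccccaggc
Fbln1, chr15:85205699-85205948, plus strand: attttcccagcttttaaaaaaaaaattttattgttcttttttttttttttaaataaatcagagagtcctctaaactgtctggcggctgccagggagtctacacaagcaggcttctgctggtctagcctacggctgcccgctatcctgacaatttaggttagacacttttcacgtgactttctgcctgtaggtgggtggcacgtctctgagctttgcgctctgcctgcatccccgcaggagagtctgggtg
Mfap2, chr4:141010174-141010417, plus strand: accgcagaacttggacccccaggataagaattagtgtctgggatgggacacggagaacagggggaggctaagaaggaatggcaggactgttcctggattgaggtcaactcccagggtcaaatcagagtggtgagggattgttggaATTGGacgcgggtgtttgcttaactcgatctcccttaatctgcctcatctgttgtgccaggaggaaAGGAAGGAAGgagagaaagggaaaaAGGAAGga
The Fbln5 stretch held 2 GC boxes, 1 CAAT box and 1 ETS core. The Ltbp4 stretch of 170 bases held 2 GC boxes and 2 CAAT boxes, while the Fbln1 stretch of 250 bases held none of the 4 motifs. The Mfap2 stretch of 244 bases held 1 CAAT box and 3 ETS cores, a pair of which overlap. No TATA box was found in any of the 4. Of all 32851 windows, 32.7% held a GC box, 33.8% a CAAT box, 12.4% a TATA box and 29.5% an ETS core in their 250 upstream bases, and of the first 170 bases 19.5% held a GC box and 23.3% a CAAT box. Mfap2, Ltbp4, Fbln5 and Fbln1 had further windows, which are not printed. Those of Ltbp4 differed from the printed stretch, with 5 GC boxes in 235 bases and 7 in 250 bases, and no CAAT box. The further Fbln1 window held none of the 4 motifs, and those of Mfap2 and Fbln5 left no exon-free stretch. A match describes letters and not a binding site.

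First, the cells that carried these transcripts were determined. FBs were 26.2% of the kept cells and 27.2% of the UMIs, yet they held 97.0% of the Eln UMIs, 98.8% of those of Fbn1, 95.9% of Fbn2, 99.2% of Mfap4 and 99.3% of Mfap5. Fbln1 (90.1%), Mfap2 (86.9%), Fbln5 (86.7%) and Emilin1 (86.4%) were also mostly in FBs. Ltbp4 was the exception, with 44.9% of its UMIs in FBs and 40.7% in keratinocytes and hair follicle cells (KCs/HFs).

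**Figure D1:**
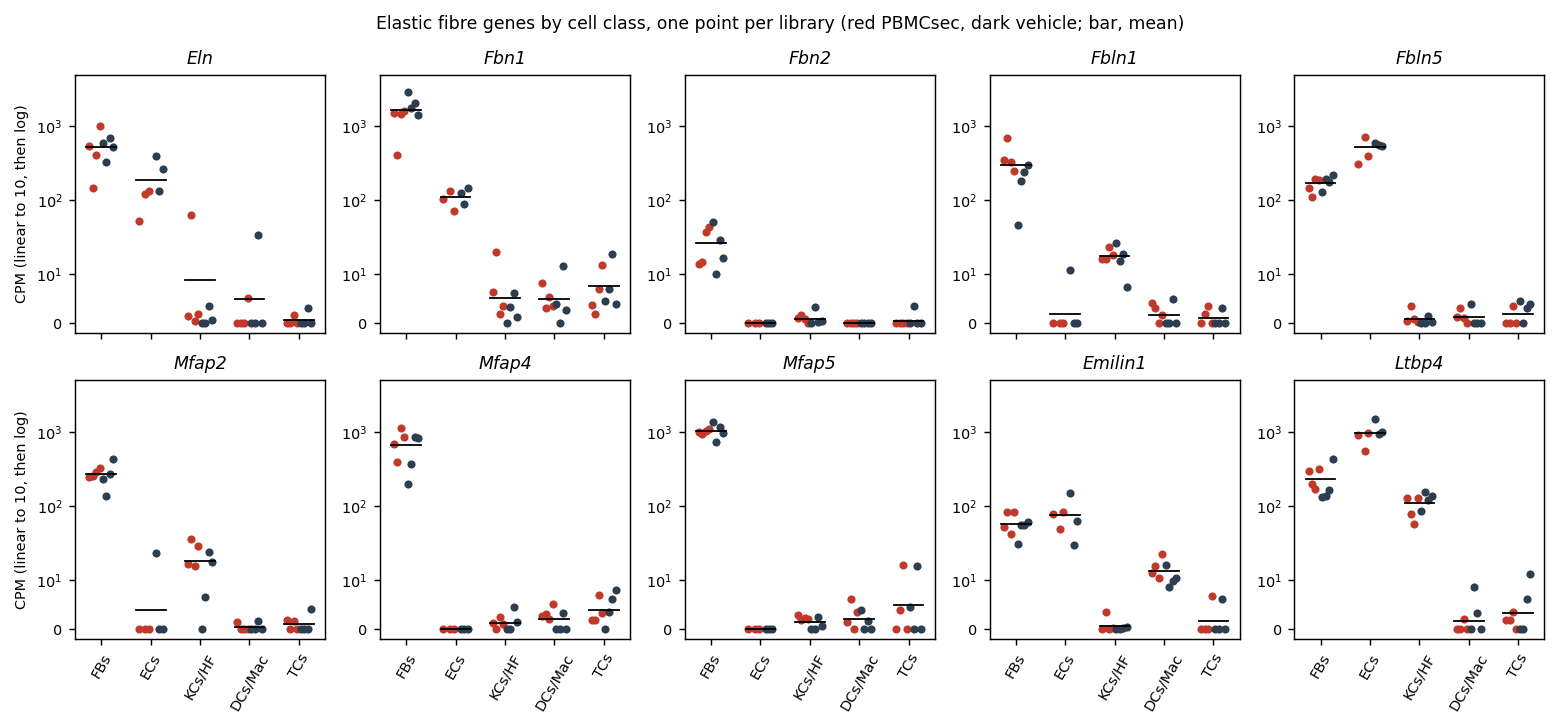
CPM of the 10 genes (vertical axis, linear up to 10 and logarithmic above) in FBs, ECs, KCs/HFs, dendritic cells and macrophages (DCs/Mac) and T and B cells (TCs), 1 point per library with at least 10 cells of the class, red for PBMCsec and dark for vehicle, with bars for the mean. FBs stand highest for 7 genes, and ECs for Fbln5, Ltbp4 and Emilin1, where the Emilin1 ranges of ECs and FBs overlap.

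The elastin gene lies on the minus strand at chr5:134702593-134747323 (GRCm38). Eln, Fbn1, Fbn2 and Mfap4 each overlap 1 gene on the other strand, and no member overlaps a gene on its own strand. For elastin itself the level in FBs was 529 ± 256 CPM (SD, n = 8 libraries) and ranged from 144 to 1001. In ECs it was 185 ± 127 CPM (SD, n = 6 libraries), from 51.7 to 401, so the ranges of these classes overlapped, although the EC value exceeded the FB value in only 1 of 6 libraries. In KCs/HFs 79 Eln UMIs were counted in 2634 cells. Of these, 35 came from 8 cells of PBMCsec library 2, which set that library at 62.4 CPM while the others lay at or under 3.43 CPM. In DCs/Mac 19 of the 24 Eln UMIs lay in 1 cell of vehicle library 3. In TCs, which are not known to make elastin, 2 of 748 cells (0.267%) had an Eln UMI, against 65.3% of FBs. The median depth was 3314 UMIs per cell in TCs and 8554 in FBs, and at 2000 UMIs per cell, which left 649 TCs and 1518 FBs, the shares were 0.163% and 40.9%.

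Fbn1, the main fibrillin of adult tissue, was at 1639 ± 697 CPM in FBs and 111 ± 27.4 CPM in ECs, with no overlap of the libraries. Fbn2, the fibrillin best known from development, was low, with 401 UMIs in FBs at 26.7 ± 15.3 CPM and 11.8% of FBs carrying a UMI, against 0.134% of TCs. No Fbn2 UMI was found in 83 ECs, which allows a level of up to 5.46 CPM at 3 counts. Mfap5 was at 1031 ± 177 CPM in FBs and Mfap4 at 664 ± 313 CPM, and neither gave a UMI in ECs. Mfap2 was at 273 ± 84.7 CPM in FBs and at 18 ± 11.5 CPM in KCs/HFs. An Mfap2 UMI was found in 9.34% of KCs/HFs and 0.401% of TCs, shares not brought to a common depth. Fbln1 was at 297 ± 183 CPM in FBs and 17.6 ± 5.75 CPM in KCs/HFs, and 1 UMI was found in all ECs.

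The remaining members, Fbln5, Ltbp4 and Emilin1, had a higher mean in ECs than in FBs. Fbln5 in ECs was at 310, 720, 393, 596, 554 and 534 CPM in PBMCsec libraries 1, 3 and 4 and vehicle libraries 2, 3 and 4. In FBs it was at 168 ± 36.5 CPM, never above 216, and the EC value was the higher in 6 of 6 libraries. Ltbp4 likewise was at 982 ± 304 CPM in ECs, from 552 to 1502, against 229 ± 105 CPM in FBs, again higher in ECs in 6 of 6 libraries. Ltbp4 was also found in 42.9% of KCs/HFs, at 110 ± 33.8 CPM, and at 205 CPM over the pooled counts of an unnamed epithelial cluster of 223 cells that expressed Tagln and Acta2. Emilin1 was at 74.8 ± 41.2 CPM in ECs, 57.5 ± 18.1 CPM in FBs and 13.2 ± 4.54 CPM in DCs/Mac. In cells under a 10% mitochondrial limit Emilin1 was at 58.7 CPM in ECs, 58.5 CPM in FBs and 59.8 CPM in SMCs/PCs. The EC class joined 49 cells of a lymphatic cluster (Ccl21a, Lyve1, Prox1) and 34 cells of a cluster led by Fabp4 and Plvap. Each EC value of a library rested on 10 to 16 cells. With the highest 5% of doublet scores removed, 56 of 83 ECs and 1548 of 1612 FBs remained. At least 10 ECs were then left in 3 libraries, with means of 570 CPM for Fbln5, 1317 CPM for Ltbp4 and 107 CPM for Emilin1. No test was made of these EC values, since the comparison was chosen after they had been seen.

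SMCs/PCs were scarce under the 5% limit, with 37 cells and only 1 library holding 10 of them, so FBs and SMCs/PCs were compared in cells under a 10% limit that were clustered anew. There, 5 libraries held at least 10 cells of both classes, and 158 SMCs/PCs were found in all. This class differed from the 37 cells under the 5% limit. Over pooled counts Mfap5 was at 147 CPM against no UMI, Mfap4 at 56.5 CPM against no UMI, Ltbp4 at 171 against 45.4 CPM and Fbln5 at 32.5 against 5.04 CPM, at the 10% and the 5% limit. The 104 Mfap5 UMIs lay in 11.4% of the 158 cells. The class passed 9 SMC/PC markers and 7 FB markers at the 10% limit, and 9 and 6 at the 5% limit. Of the 37 cells under the 5% limit, 16 remained with the highest 5% of doublet scores removed. The part of FB RNA in the levels of this class was not tested. At the 10% limit, 9 members were higher in FBs and 1 was not called (edgeR, adjusted p under 0.05, library as block), where 11.1% of the 9276 genes tested were higher in FBs and 19% were called in either direction. FB counts alone could carry a gene past the low-count filter, so this number is a description and no support. SMCs/PCs held 3 Fbn2 UMIs, all in vehicle library 3, and 12 Fbln1 UMIs, with none in PBMCsec library 4, so the fitted differences of Fbn2 and Fbln1 rest on few counts. For Eln the values in SMCs/PCs were 28.8, 61.6, 134, 114 and 35.4 CPM in PBMCsec libraries 1, 3 and 4 and vehicle libraries 3 and 4, and 548, 470, 971, 782 and 593 CPM in the FBs of the same libraries. These did not overlap, and the difference was 3.51 ± 0.26 on the log2 scale (edgeR adjusted p = 6.6e-09). Ltbp4 differed least of the called members, by 0.91 ± 0.25 (edgeR adjusted p = 0.014), and lost its call with DESeq2 (adjusted p = 0.059) and without PBMCsec library 4 (edgeR adjusted p = 0.053). Emilin1 was the member not called, at 28.8 to 100 CPM in SMCs/PCs and a difference of 0.12 ± 0.31 (edgeR adjusted p = 0.85).

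Next, the members were followed over the 7 FB clusters, which had been formed without the 10 genes or the other elastic fibre genes among the clustering features. Clusters are called by number and leading genes, cluster 0 (Sfrp2, Fn1), 7 (Igfbp2, Ednrb, with Acta2 and Tagln), 11 (Mrgprg, Smpd3), 14 (Mgp, Fbln7, Hmcn2), 16 (Hpgd, Adamts18, Cxcl12), 18 (Cxcl2, Cxcl1, Ccl2, immune mediators, with Ptgs2) and 27 (Slc26a7, Hhip). No test was made between them.

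**Figure D2:**
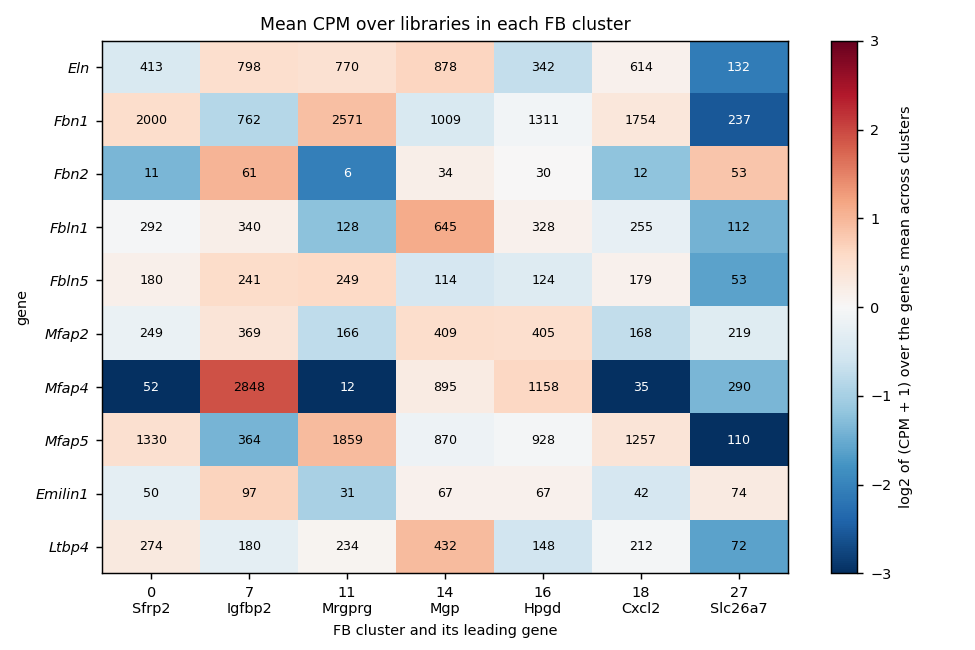
Mean CPM over libraries with at least 10 cells, printed for each gene (rows) and FB cluster (columns, with the first leading gene), coloured by the log2 of CPM + 1 over the gene's mean across clusters, with the colours ending at 3 in either direction. Mfap4 runs from 11.6 CPM in cluster 11 to 2848 CPM in cluster 7, while Fbn1 and Mfap5 are highest in cluster 11.

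Mfap4 was the most uneven member. It was at 2848 ± 1142 CPM in cluster 7 (SD, n = 6 libraries), 1158 ± 629 in cluster 16 and 895 ± 611 in cluster 14, but at 52.4 ± 38.4 in cluster 0, 34.8 ± 44.5 in cluster 18 and 11.6 ± 8.10 in cluster 11. The 3 high clusters did not overlap these 3 low clusters in any library, and cluster 7 alone held 59.7% of the Mfap4 UMIs of FBs. Fbn2 and Emilin1 were also highest in cluster 7, at 60.8 ± 28.0 and 97.3 ± 23.8 CPM, and lowest in cluster 11, at 6.38 ± 2.04 and 30.6 ± 10.3 CPM. Fbn1 and Mfap5 had nearly the opposite order. Fbn1 was at 2571 ± 787 CPM in cluster 11 and 762 ± 296 in cluster 7, and Mfap5 at 1859 ± 358 in cluster 11 and 364 ± 315 in cluster 7, with no overlap of the libraries for either gene between these clusters. Fbln1 and Ltbp4 shared their highest cluster, 14, at 645 ± 301 and 432 ± 170 CPM. Most neighbours in the order of levels overlapped in their ranges.

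Elastin was found in every FB cluster. Its mean was 878 ± 1107 CPM in cluster 14, 798 ± 389 in cluster 7, 770 ± 454 in cluster 11, 614 ± 382 in cluster 18, 413 ± 313 in cluster 0, 342 ± 267 in cluster 16 and 132 ± 102 in cluster 27, and each neighbouring pair overlapped. These means rest on 7 libraries in cluster 0, 6 in clusters 7, 14 and 16, 5 in clusters 11 and 18, and 3 in cluster 27. Vehicle library 1 entered cluster 0 alone, and vehicle library 2 entered no cluster. The large spread in cluster 14 came with PBMCsec library 4, at 3099 CPM, whereas the other libraries lay between 70.7 and 675 there. Elastin UMIs were concentrated in few cells. The 81 FBs with the most Eln UMIs, 5% of all, held 41.6% of them, compared with 17.5% for Fbn1 and 19.5% for Mfap5, 54.4% for Mfap4 and 72.3% for the sparse Fbn2. Of the 81, 35 lay in cluster 7 and 19 in cluster 14. A single FB of PBMCsec library 4 held 274 Eln UMIs, and within libraries the top 5% of FBs held between 25.4% and 57.8% of the Eln UMIs.

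Over all 34 cell clusters, the genes with a profile most like that of Eln were Fbn1 (Pearson r = 0.97 of log2(CPM + 10)), the basement membrane gene Nid1 (0.96) and Cped1 (0.96), out of 11550 genes with at least 200 UMIs. Nid1 (0.97), C1ra (0.97) and Serping1 (0.97) were closest to Fbn1, and Scara5 (0.99), Lrrc17 (0.97) and Htra3 (0.97) to Mfap5. For Mfap4 they were Cilp (0.96), Slit2 (0.96) and Tspan11 (0.96), for Fbn2 Fgf10 (0.95), Dkk2 (0.94) and Dnm3os (0.94), for Fbln1 Mrc2 (0.91), Pdgfra (0.90) and Gpc3 (0.90), and for Mfap2 Col5a2 (0.97), P3h1 (0.96) and Igsf10 (0.95). Fbln5, Emilin1 and Ltbp4, whose mean was higher in ECs than in FBs, had other neighbours. These were Lbp (0.94), Jcad (0.93) and Enpp3 (0.93) for Fbln5, and Rftn2 (0.92), Adgra2 (0.90) and Dennd2a (0.90) for Emilin1. For Ltbp4 they were the caveolar genes Cavin3 (0.93) and Cavin1 (0.88) with Hspg2 (0.88). Among members the correlation ran from 0.32 (Mfap4 with Ltbp4) to 0.97 (Eln with Fbn1). Most of the 34 clusters are not FBs, so these correlations also count the contrast of FBs with other cells. Over FB clusters alone the order of mean levels differed between Eln and Fbn1. Mfap4 and Mfap5, which were highest in different FB clusters, still had a correlation of 0.74. The clusters draw on the same 8 libraries and differ in depth, and these values describe them.

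To see whether PBMCsec altered elastic fibre genes, FB counts were summed per library and compared. Eln was at 532, 144, 408 and 1001 CPM in PBMCsec libraries 1 to 4 and at 602, 323, 694 and 529 CPM in vehicle libraries 1 to 4. The lowest and the highest value of all were both PBMCsec libraries, and the groups overlapped. The means were 522 ± 358 and 537 ± 158 CPM (SD, n = 4 each). The log2 fold change was 0.04 ± 0.45 (SE, edgeR adjusted p = 0.9999). The difference in mean log2 CPM had the other sign, at -0.19. Its exact two-sided permutation test over the 70 labellings gave p = 0.80 (smallest possible 0.029), and neither test separated the groups. Without PBMCsec library 4 the log2 fold change was -0.50 and without vehicle library 2 it was -0.11, neither called.

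None of the 10 members was called by edgeR's quasi-likelihood test at an adjusted p under 0.05, and none by DESeq2, with 0% of all 9572 genes called. One member, Fbln1, had an unadjusted p under 0.05, as did 1.92% of all genes. Fbln1 was at 348, 684, 331 and 247 CPM with PBMCsec and at 46.3, 182, 243 and 299 CPM with vehicle. All 4 PBMCsec libraries lay above the vehicle median, and vehicle library 4 lay above PBMCsec library 4. The log2 fold change was 1.07 ± 0.45 (edgeR unadjusted p = 0.035, adjusted p = 0.9999, exact permutation p = 0.057). Of the Fbln1 UMIs of vehicle library 2, 69.4% came from 1 FB, which held 25. With the highest 5% of doublet scores removed that library was at 27.7 CPM, and the log2 fold change was 1.31 ± 0.55 (edgeR unadjusted p = 0.034, adjusted p = 0.9996). It was 2.24 in libraries 1 and 2 alone and 0.18 in libraries 3 and 4 alone, where Fbn2 was the member with an unadjusted p under 0.05 (log2 fold change 0.86 ± 0.29, edgeR adjusted p = 0.99995). Without PBMCsec library 2 or without vehicle library 2 no member reached an unadjusted p under 0.05, and without vehicle library 4, 2 did.

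**Figure D3:**
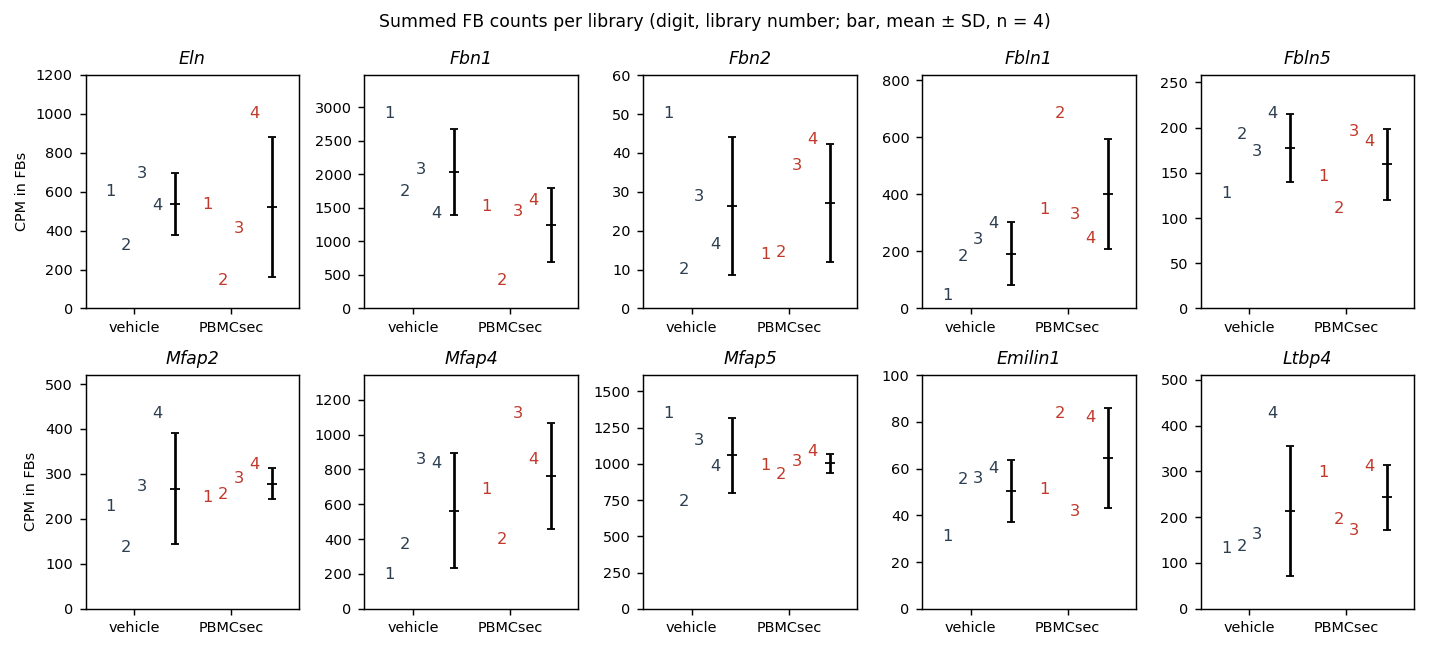
CPM of summed FB counts (vertical axis, from 0) for each gene, with the digits 1 to 4 marking the libraries of vehicle (dark) and PBMCsec (red) and bars giving mean ± SD (n = 4). The groups overlap for all 10 genes, and Fbln1, from 193 to 402 CPM, has the largest change on the log2 scale.

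Fbn1 was at 1512, 412, 1445 and 1602 CPM with PBMCsec and at 2904, 1747, 2067 and 1421 CPM with vehicle. All PBMCsec libraries lay below the vehicle median, but 3 of them lay above vehicle library 4, and the log2 fold change of -0.63 ± 0.37 was not called (edgeR adjusted p = 0.9999, exact permutation p = 0.20). Mfap4 (0.48 ± 0.43), Emilin1 (0.34 ± 0.29), Fbn2 (0.25 ± 0.44), Ltbp4 (0.21 ± 0.38), Mfap2 (0.10 ± 0.29), Mfap5 (0.00 ± 0.20) and Fbln5 (-0.09 ± 0.25) gave smaller log2 fold changes. The groups of libraries overlapped for all 10 members, and 2.12% of all genes had groups that did not. The median over the members was 0.16, against -0.01 over all genes tested. Mfap5 was the steadiest, with PBMCsec libraries between 926 and 1085 CPM and vehicle libraries between 742 and 1346 CPM.

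A test over cells gave another answer. When 981 PBMCsec and 631 vehicle FBs were taken as replicates in a Wilcoxon rank-sum test with Bonferroni correction, Fbn1, Eln and Fbln1 were called, with 142 of 7886 genes. This test does not count the spread between libraries, which for Eln was 6.93-fold between the lowest and the highest library.

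The share of FBs with a member UMI, at 2000 UMIs per cell, did not reach p under 0.05 for any member by the exact permutation test, and did for 1 member when vehicle library 4 was left out. For Eln it was 40.5%, 19.1%, 29.0% and 57.3% with PBMCsec and 46.5%, 37.4%, 52.6% and 44.6% with vehicle (exact permutation p = 0.37), and without thinning it ran from 42.9% to 81.2% over the libraries. The thinned share for Fbln1 was 37.3%, 55.4%, 40.1% and 32.7% with PBMCsec and 8.06%, 13.7%, 30.5% and 38.3% with vehicle (exact permutation p = 0.086). At this depth 927 PBMCsec and 591 vehicle FBs were used. The FB clusters differed in size between libraries and no difference by group was found, with exact permutation p values from 0.29 to 0.77 for the 7 clusters.

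The rest of the pathway was then read from the same fit. Of 55 listed genes 41 were tested and none was called, in either direction, with a median log2 fold change of -0.10. Of the 15 tested genes of microfibrils and their assembly, 13 had a negative and 2 a positive log2 fold change (median -0.13), and of the 5 lysyl oxidases 4 were negative (median -0.33), where 4848 of all 9572 genes were negative. The growth factors held by the matrix had 3 negative of 6 and the integrin receptors 5 of 6. The elastin-degrading proteases had 2 negative of 4. The protease inhibitors tested, Serping1, Cst3, Timp1, Timp2 and Timp3, had 1 negative of 5. Slpi, which the paper names as an elastase inhibitor, was not among the genes tested. An unadjusted p under 0.05 was found for 4 of the 41 genes, beside 1.92% of all genes. Adamtsl4, which promotes fibrillin-1 microfibril formation, was at 40.5, 16.0, 39.2 and 21.7 CPM with PBMCsec and at 77.1, 35.3, 60.1 and 43.6 CPM with vehicle (log2 fold change -0.74 ± 0.30). The lysyl oxidase Loxl2 was at 340, 205, 256 and 246 CPM and at 659, 505, 337 and 257 CPM, with overlap of the groups (-0.66 ± 0.29). Serping1, the C1 inhibitor, was at 2159, 1914, 1663 and 1599 CPM and at 868, 1121, 1534 and 1647 CPM (0.56 ± 0.24). The cathepsin inhibitor Cst3 was at 2138, 2309, 1397 and 1619 CPM and at 875, 666, 1666 and 1698 CPM (0.67 ± 0.31). All 4 had an edgeR adjusted p of 0.9999, and in CPM the groups overlapped for each of them. On TMM-scaled log2 CPM the exact permutation p was 0.029 for Serping1, the smallest possible. It was 0.11 for Adamtsl4 and Cst3 and 0.20 for Loxl2. These p values are unadjusted, and the 4 genes had been picked by their unadjusted edgeR p.

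**Figure D4:**
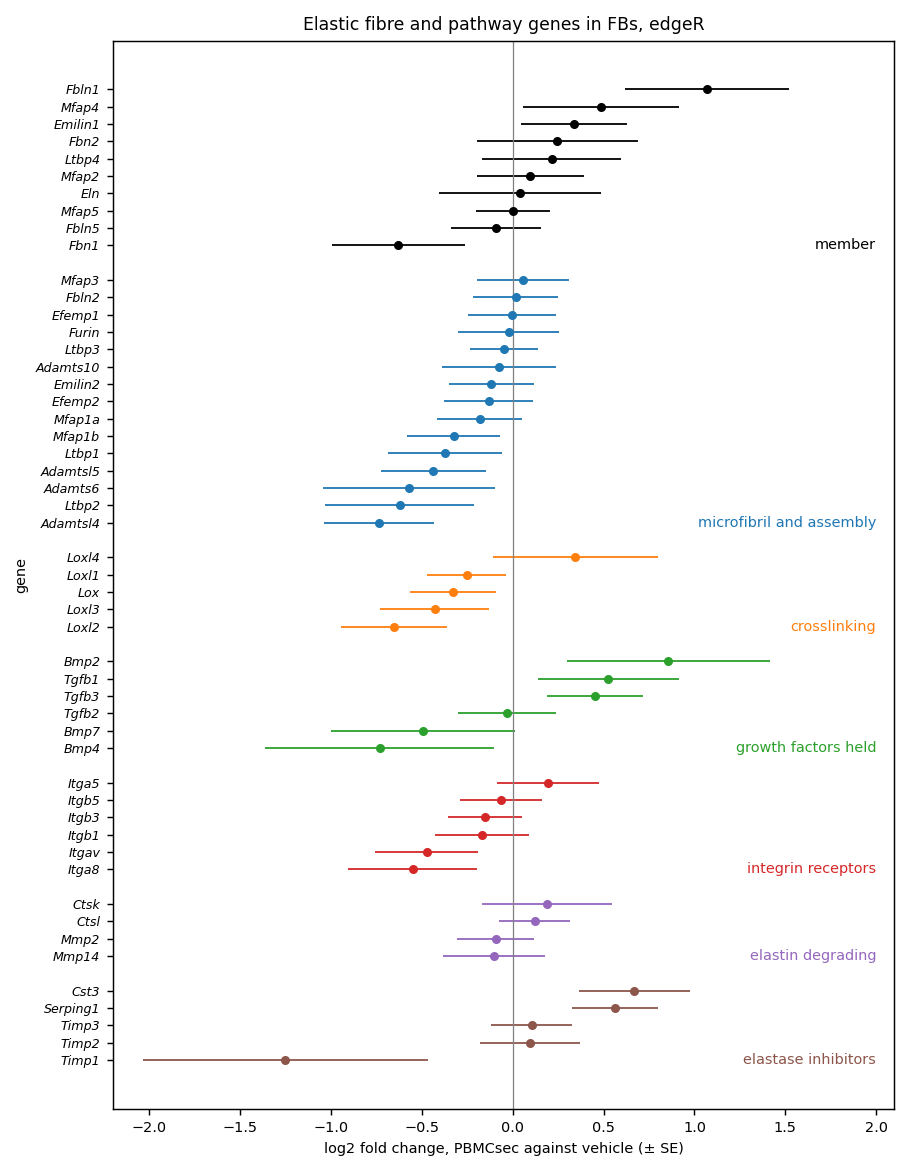
Log2 fold change of PBMCsec against vehicle in FBs (horizontal axis, edgeR, bars ± SE) for the 10 members in black and the 41 tested pathway genes, coloured by list (vertical axis, genes). The members run from -0.63 (Fbn1) to 1.07 (Fbln1), and none of the genes plotted was called.

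Outside FBs little could be tested. In KCs/HFs 4 members passed the low-count filter, Fbn1, Fbln1, Mfap2 and Ltbp4, and none was called (edgeR, 0% of 10731 genes called and 1.55% at an unadjusted p under 0.05). No member passed the filter in TCs, where 0% of 4453 genes were called and 3.39% had an unadjusted p under 0.05. ECs and SMCs/PCs held too few cells per library for a test of PBMCsec. In all kept cells summed, where the share of FBs and the RNA per FB cannot be told apart, none of the 10 members was called either (edgeR, 0% of 13182 genes). FBs were 196 of 701, 70 of 313, 550 of 1515 and 165 of 791 kept cells in PBMCsec libraries 1 to 4. In vehicle libraries 1 to 4 they were 31 of 151, 27 of 208, 397 of 1659 and 176 of 812. Fbln1 was at 112, 194, 139 and 67.4 CPM with PBMCsec and 16.3, 29.6, 68.2 and 66.6 CPM with vehicle, where vehicle library 3 alone exceeded a PBMCsec library (log2 fold change 1.497 ± 0.47, edgeR unadjusted p = 0.011, adjusted p = 0.99999). Emilin1 had an unadjusted p of 0.0091 (0.65 ± 0.20, edgeR adjusted p = 0.99999), beside 2.54% of all genes at an unadjusted p under 0.05.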

How the data were processed

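The members and gene lists were chosen with earlier results of these data known. Raw UMI counts per gene and cell barcode (10x Chromium 3′ v3.1) were deposited by the authors, aligned to mm10 with Cell Ranger 3.0.2 according to the submitters' processing notes. Gene positions and exons came from the GENCODE annotation of GRCm38. Gm42418, Gm17056 and Gm26917 were left out, as in the study. Limits of 500 to 4000 genes, 20000 UMIs and a mitochondrial share of 5% were set on cells, which were integrated in Seurat 5.3.0 (2000 variable features, of which 1964 were used once members and pathway genes were left out, 30 dimensions, resolution 1). Clusters were named by at least 3 markers found in at least 25% of their cells at 2-fold over the median cluster, a rule set after the clusters were seen. Scrublet in scanpy called 0.407% of cells, which is too few to be relied on, so doublets were kept. Within each class, UMIs of a library's cells were added up for edgeR 4.0.16 (quasi-likelihood, TMM, filterByExpr, Benjamini-Hochberg over all genes) where every library had at least 20 cells, and the method was tested on simulated data. Levels used libraries with at least 10 cells. Single values were tested by exact two-sided permutation. Thinned shares are expectations at 2000 UMIs per cell. Floors of 3 counts cover counting error only. DESeq2 1.42.0, other scalings, filters, cell limits, clusterings and left-out libraries were alternatives. Named genes were the 10 members, listed genes with an unadjusted p under 0.05 as none passed, the 3 most similar genes for each member and the leading genes of FB clusters. FBs against SMCs/PCs could not be fitted under the 5% limit and used the 10% limit.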

Additional observations from a re-analysis of the deposited data

Results flagged for a closer look

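In 3 of 20 groups of 4 libraries 1 library stood apart from the others in its FB level of a member, where the limit used flags about 1 in 20 independent groups by chance. These groups share the same 8 libraries and are not independent. Fbn1 was lowest in PBMCsec library 2, at 412 CPM against 1445 to 1602 CPM in the other PBMCsec libraries. Emilin1 was lowest in vehicle library 1, at 30.8 CPM, and Ltbp4 was highest in vehicle library 4, at 426 CPM against 131 to 162 CPM in the other vehicle libraries.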

How the results depend on the processing

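No member was called between PBMCsec and vehicle in FBs, in other classes or in all cells summed under any alternative over libraries, and 3 were called by the Wilcoxon test over cells. Of FBs against SMCs/PCs, which was fitted at the 10% limit after seeing the data, 8 or 9 members were called under each alternative. With DESeq2 8 were called, and 8 with at least 20 cells a library, which is the same fit as without PBMCsec library 4. That library held 18 SMCs/PCs. The number of members with an unadjusted p under 0.05 in FBs was 1, and 2 with the library number as a replicate block, 3 in libraries 1 and 2 alone, and 0 to 2 when a library was left out (0 without PBMCsec library 2 or vehicle library 2, 2 without vehicle library 4). Whether the numbers pair the libraries was not settled. The deviations of same-numbered libraries correlated at 0.21, 0.10 and 0.24 for numbers 1, 3 and 4, where each PBMCsec library correlated best with its own number, and at -0.0072 for number 2, where it did not. The block called no gene in FBs. The number of members whose thinned share reached p under 0.05 was 0, and 0 to 1 when a library was left out (1 without vehicle library 4). Of 249 member and setting pairs 30 turned the sign of a log2 fold change, none of them called, and the cause was not tested. Eln was -0.21 with the replicate block, -0.047 without TMM, -0.38 in libraries 1 and 2, -0.20 at the 10% limit, -0.22 without FB cluster 14 and -0.040 without cluster 16, and from -0.50 to 0.36 when a library was left out. Fbn2 was -0.046 without cluster 16 and -0.039 to 0.49 with a library left out. Fbln5 was 0.056 in libraries 3 and 4 and 0.057 without the highest doublet scores, and -0.22 to 0.050 with a library left out. Mfap2 was -0.12 and Ltbp4 -0.21 in libraries 3 and 4, and Mfap2 -0.089 to 0.47 with a library left out. Mfap5 was -0.0033 with DESeq2, -0.0016 with its size factors, -0.078 without TMM, -0.051 in libraries 1 and 2, -0.058 at the 10% limit, -0.022 without high doublet scores, -0.035, -0.0041, -0.078 and -0.0030 without clusters 14, 18, 27 and 7, and -0.11 to 0.12 with a library left out. Fbn2 gave no value in libraries 1 and 2 alone, where it did not pass the filter. The settings without an FB cluster were chosen after seeing the data. The smallest libraries held 27 and 31 FBs.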
